A study of Mus musculus with 6 samples.

Results

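The genes described here encode the subunits of the 5 complexes of oxidative phosphorylation, measured by RNA sequencing in mouse neural stem cells (NSCs). They were chosen by name (Nduf, Sdh, Uqcr, Cox4 to Cox8 and Atp5 followed by a subunit letter) and by a mean of at least 10 normalized counts over the 6 libraries. Of 83 genes with such a name, 80 passed, out of 14840 genes that passed the same minimum and 53379 in the table. They comprised 35 genes of complex I, 4 of complex II, 8 of complex III, 16 of complex IV and 17 of complex V. Ndufa4 was counted in complex IV, to which textbooks now assign it, and 3 of the 80 (Cox7a2l, Atp5s and Atp5sl) carry such a name but are not structural subunits, which leaves 77.

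All 6 libraries came from cells that carry Tbl1xr1 flox/flox, a conditional allele of the gene for a subunit of the NCoR/SMRT corepressor complexes. The cells were derived from the cortex of mouse embryos and grown as neurospheres, and the GFP+ cells were sorted after infection with a lentivirus. The 3 control libraries (replicates 1, 1_1 and 2) received GFP alone and the 3 libraries labelled Cre (replicates 2, 2_2 and 3) received Cre with GFP, so that all 6 share the floxed alleles and a lentiviral vector. The labels give neither the embryo nor the culture behind each library, so p-values measure only the spread between these samples, which may be technical. Depth ranged from 7510615 to 11161497 reads in the control libraries and from 11893230 to 14828100 in the libraries labelled Cre.

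Oxidative phosphorylation is carried out in the inner mitochondrial membrane. Complexes I (NADH dehydrogenase) and II (succinate dehydrogenase) pass electrons to ubiquinone, complex III (cytochrome bc1) hands them to cytochrome c and complex IV (cytochrome c oxidase) to oxygen, while complex V (ATP synthase) makes ATP from the proton gradient. All complexes except II mix subunits encoded in the nucleus with subunits encoded in mitochondrial DNA. Some nuclear subunits of complex IV exist as a general and a muscle, heart or testis form, and proliferating neural progenitors are known to rely more on glycolysis than neurons do.

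The targeted gene was examined first. Tbl1xr1 (ENSMUSG00000027630) had 2521.8, 2189.8 and 2720.6 normalized counts in control 1, 1_1 and 2, and 3774.4, 3463.4 and 2905.5 in Cre 2, 2_2 and 3. Its mRNA was thus higher, not lower, in every library labelled Cre (log2 fold change 0.45 ± 0.14 SE, limma, adjusted p = 0.06). The floxed part is a single exon, so a gene total neither shows nor refutes the deletion. The study checked the genotype of the recombined cells by PCR and reported Tbl1xr1 mRNA and protein absent by RT-qPCR and Western blot. Those assays are not analysed here, and the groups are named by their labels throughout.

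Marker genes moved between the groups as well. Of the astrocyte markers tested, 4 of 7 rose (Aqp4, S100b, Slc1a2 and Sox9), and the summed level of that list was 6897.4 to 8067.2 normalized counts in the control libraries and 12942.3 to 16505.0 in those labelled Cre, a sum of which Sox9 is the greater part. Aldh1l1 of the same list did not pass the test but had lower values with Cre, at 18.4, 19.0 and 14.7 normalized counts in control and 9.0, 2.58 and 4.48 in the libraries labelled Cre, without overlap (log2 fold change -1.65, limma, adjusted p = 0.065), and Gfap stayed at or below 10.3 in every library. Of the oligodendrocyte lineage markers 3 of 6 rose (Cspg4, Olig2 and Pdgfra), with sums of 12487.9 to 14404.1 and 17235.9 to 19638.5. The NSC markers, Sox2, Nes, Vim and Fabp7 among them, were expressed in every library, and their sum was 38962.4 to 42729.7 in control and 39460.5 to 41481.1 with Cre. Of the 10 in that list Nes alone was called, lower. Without a call, Vim lay below without overlap (-0.34, limma, adjusted p = 0.105), and Slc1a3 and Pax6 above. Of 7 neuron markers Elavl4 rose and Gap43 fell. Of 6 proliferation markers Mcm2 and Mcm5 were called lower, and all 6 were negative (their list's sum was 23913.6 to 25564.1 against 19006.7 to 21843.5). Pcna, Top2a and Mki67 lay below without overlap but were not called. Of all tested genes 4.74% were called higher and 5.22% lower, and these marker lists are too short to set against those shares. Of the microglia and the endothelial and mural markers 1 each reached the minimum level (Csf1r and Kdr), and of the fibroblast and red blood cell markers none, so that these lists were hardly tested. Kdr had 34.0, 23.4 and 16.0 normalized counts against 6.93, 10.3 and 8.95, without overlap (-1.34, adjusted p = 0.0677). The sums of the 4 lists reached at most 274.0 (nearly all Csf1r), 41.3, 21.5 and 4.85, and Tmem119, Cdh5, Cldn5, Col1a2 and the hemoglobin genes were at 0 in every library. The part of these shifts in the values below was not tested. In bulk samples, fewer cells of a type and less RNA per cell cannot be told apart.

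Sequence around the start site is shown for the subunit genes that passed the test and for those that hold the most motifs of known regulators of respiratory genes. RefSeq start-site windows (GRCm38.p6, 250 bases before to 50 after the start) were available for 65 of the 80 genes, in 70 windows. Of the 5 genes that passed the test, Atp5e, Cox6b2 and Ndufa12 are in that set, and Ndufb9 and Cox6a2 are not. Each sequence runs 5′ to 3′ on the strand of its gene, with any motif, on either strand, in capitals. A further start-site window of Atp5j, chr16:84835576-84835875, is not printed and holds none of the motifs. In Atp5k the ETS and E2F motifs begin 12 and 18 bases after the start, and the NRF1 motif 49 bases before it.
Atp5e, chr2:174464052-174464351, minus strand, ETS motif 102 bases before the start: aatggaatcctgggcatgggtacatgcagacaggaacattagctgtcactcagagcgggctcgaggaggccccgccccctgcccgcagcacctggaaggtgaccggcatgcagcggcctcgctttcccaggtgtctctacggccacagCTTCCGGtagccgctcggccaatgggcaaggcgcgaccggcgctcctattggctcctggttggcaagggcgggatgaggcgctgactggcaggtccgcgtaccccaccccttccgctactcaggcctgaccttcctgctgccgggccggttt
Cox6b2, chr7:4753045-4753344, minus strand, none of the motifs: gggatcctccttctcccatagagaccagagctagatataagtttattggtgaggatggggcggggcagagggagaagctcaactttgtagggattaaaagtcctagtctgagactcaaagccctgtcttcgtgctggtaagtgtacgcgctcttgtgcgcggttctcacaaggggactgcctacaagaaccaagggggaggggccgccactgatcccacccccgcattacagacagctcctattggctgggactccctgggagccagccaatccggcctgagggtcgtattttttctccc
Ndufa12, chr10:94198785-94199084, plus strand, none of the motifs: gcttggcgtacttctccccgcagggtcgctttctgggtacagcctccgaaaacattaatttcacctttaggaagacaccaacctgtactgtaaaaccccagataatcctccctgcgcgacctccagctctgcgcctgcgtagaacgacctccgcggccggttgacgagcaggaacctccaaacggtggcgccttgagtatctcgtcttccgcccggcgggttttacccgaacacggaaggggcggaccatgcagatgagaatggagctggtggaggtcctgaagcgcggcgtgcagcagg
Atp5j, chr16:84834927-84835226, minus strand, NRF1, YY1 and ETS motifs in that order: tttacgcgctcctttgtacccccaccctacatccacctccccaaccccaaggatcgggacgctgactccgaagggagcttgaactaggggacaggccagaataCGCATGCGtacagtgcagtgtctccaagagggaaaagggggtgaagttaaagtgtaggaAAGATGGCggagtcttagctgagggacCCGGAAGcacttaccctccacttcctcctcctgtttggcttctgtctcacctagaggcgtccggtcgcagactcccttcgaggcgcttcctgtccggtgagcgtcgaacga
Atp5k, chr5:108434350-108434649, minus strand, an NRF1 motif and an ETS motif that shares 1 base with an E2F motif: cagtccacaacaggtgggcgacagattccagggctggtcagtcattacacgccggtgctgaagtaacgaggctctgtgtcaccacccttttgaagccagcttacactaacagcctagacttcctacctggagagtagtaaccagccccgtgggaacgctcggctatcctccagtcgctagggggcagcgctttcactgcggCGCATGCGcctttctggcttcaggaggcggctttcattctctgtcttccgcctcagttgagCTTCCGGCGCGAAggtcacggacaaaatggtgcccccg

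The 4 motifs searched, on both strands, were CGCATGCG for NRF1, CCGGAAG for the ETS family (GABPA), AAGATGGC for YY1, and TTCGCGC or TTGGCGC for E2F. They were more frequent in the subunit windows than in all 32851 windows of the same length. The windows were not matched for GC content or for expression of their genes. NRF1 letters were found in 12.9% of subunit windows and 1.87% of all, ETS letters in 22.9% and 8.86%, YY1 letters in 12.9% and 2.75%, and E2F letters in 10.0% and 3.89%. At least 1 of the 4 was present for 32 of the 65 genes, and Atp5j and Atp5k alone held 3. A match is a description of the letters and not of a bound site.

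Few subunit genes differed between the groups. With limma across all tested genes and a Benjamini-Hochberg adjusted p under 0.05, 5 of 80 were called, or 6.25%, where 9.96% of all 14840 tested genes were. The single gene called higher in the libraries labelled Cre was Cox6a2, the muscle and heart form of a complex IV subunit, against a background of 4.74% of all genes. The 4 called lower, against 5.22% of all genes, were Ndufa12 and Ndufb9 of complex I, Cox6b2 (the testis form of another complex IV subunit) and Atp5e of complex V. A further look at unadjusted p under 0.05 found 14 genes (17.5%, 4 higher and 10 lower) where all genes gave 25.5%. The 3 control and 3 Cre values did not overlap for 20 genes (8 above and 12 below), against 30.3% of all genes.

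The size of the changes was small. The median log2 fold change of the 80 genes was -0.06, against a median of all genes near 0, with 32 genes positive and 48 negative. The middle of the list, from the 10th to the 90th percentile, ran from -0.36 to 0.36, and that of all genes from -0.55 to 0.57. For 69 of 80 genes (86.2%) the 95% interval of the log2 fold change lay within ±1, which 69.1% of all genes reached, and for 33 it lay within ±0.5. These spreads were not matched for level. The median of the mean counts was 1057.8 for the subunit genes and 182.0 for all genes. Each call count depended on the library left out. Leaving out Cre 2 gave 13 called subunit genes while the background rose to 16.1%, and leaving out Cre 2_2 gave 2 with a background of 4.88%. Leaving out control 1 or control 2 gave 3, with backgrounds of 3.76% and 4.33%.

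**Figure D1:**
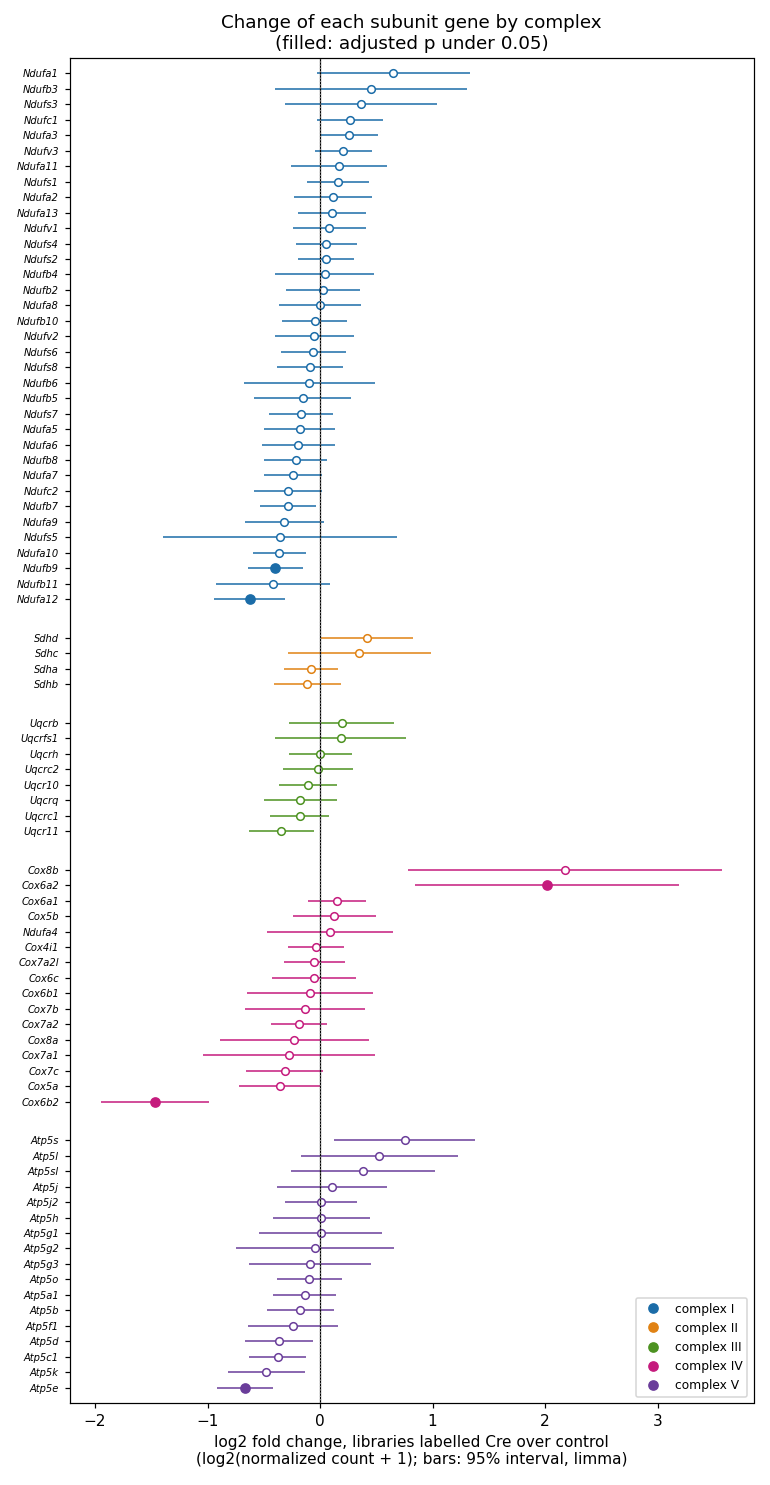
Each of the 80 subunit genes is one row, grouped by complex, with its log2 fold change (libraries labelled Cre over control, on log2 of normalized count plus 1) and the 95% interval from limma. Filled points are the 5 genes with an adjusted p under 0.05, the dotted line is the median of all tested genes, and most intervals cross 0.

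**Figure D2:**
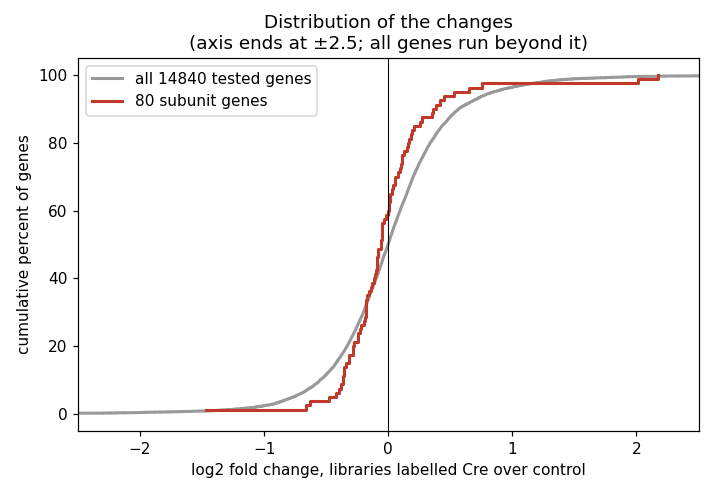
Cumulative percent of genes (vertical axis) against log2 fold change (horizontal axis) for the 80 subunit genes and all 14840 tested genes. The curve of the subunit genes is steeper, with its 10th and 90th percentiles at -0.36 and 0.36 where those of all genes are -0.55 and 0.57. The sets were not matched for level, with medians of the mean counts of 1057.8 and 182.0.

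Summed transcript levels overlapped between the groups for every complex. All 80 genes together reached 119282.2 to 137201.4 normalized counts in the control libraries and 114178.0 to 132543.5 in those labelled Cre, or 1.09% to 1.33% and 1.07% to 1.29% of all reads. The lowest sum among all 6 libraries was that of Cre 3 and the highest that of control 2. Per complex, the median log2 fold change was -0.05 for complex I, 0.13 for complex II, -0.07 for complexes III and IV and -0.09 for complex V.

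Complex I, the entry point of electrons from NADH, held 2 of the 5 calls, both among its accessory subunits. That is 5.71% of its 35 genes, where 9.96% of all genes were called. Ndufa12 (ENSMUSG00000020022), an accessory subunit of the peripheral arm, had 4465.5, 4553.7 and 3899.6 normalized counts in control 1, 1_1 and 2, and 3019.5, 2277.9 and 3127.5 in Cre 2, 2_2 and 3. The groups do not overlap, with Cre 2_2 lowest of all. It fell by 0.63 on the log2 scale (SE 0.14, limma, adjusted p = 0.019), which is 1.54-fold lower. The call was lost without control 1 (log2 fold change -0.60, adjusted p = 0.0983), control 1_1 (-0.59, 0.0818) or Cre 2_2 (-0.48, 0.0834).

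Ndufb9 (ENSMUSG00000022354), an accessory subunit of the membrane arm, had 2544.8, 2407.8 and 2796.7 normalized counts in the control libraries and 1935.7, 2009.3 and 1920.6 in those labelled Cre. Its values were closer together within the Cre group (SD 47.5) than within the controls (SD 197.0). It fell by 0.40 on the log2 scale (SE 0.11, limma, adjusted p = 0.0453), 1.32-fold. This call is near the threshold and was lost on leaving out any library except Cre 2, with adjusted p from 0.0667 without Cre 3 to 0.172 without control 2.

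The 7 nuclear core subunits, which hold the flavin and iron-sulfur centers that carry the electrons, had no call. Their log2 fold changes ran from -0.17 to 0.36 with a median of 0.05. Ndufs1, the subunit with most of these centers, had 1136.1, 1252.2 and 1017.6 normalized counts in the controls and 1210.6, 1197.5 and 1386.9 with Cre, so that the groups overlap (log2 fold change 0.16, 95% interval -0.12 to 0.43). Ndufv1, which binds NADH, had 660, 688 and 724 against 603, 732 and 885 (0.08, -0.24 to 0.41). Ndufs3, a core subunit near the quinone site, had 19.3, 24.9 and 25.3 against 34.6, 27.5 and 27.8, the only core gene without overlap (0.36, -0.31 to 1.04, adjusted p = 0.507). Ndufs3 and the accessory Ndufs5 were the complex I genes with the lowest levels, at means of 26.6 and 12.5 normalized counts. Both have a near-identical copy elsewhere in the genome, so their totals are uncertain.

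The groups did not overlap for 8 of the 35 complex I genes (22.9%), a smaller share than the 30.3% of all genes. Among the other accessory subunits of complex I, 3 more genes had all Cre values below all control values. Ndufa10, a subunit of the membrane arm, had 3097.2, 2872.9 and 3062.0 normalized counts in control and 2417.0, 2226.3 and 2390.6 with Cre (log2 fold change -0.36, limma, adjusted p = 0.0582). Ndufb7 (-0.29, adjusted p = 0.138) and Ndufa7 (-0.24, adjusted p = 0.235) were the others. All Cre values lay above all control values for Ndufa3 (0.25, adjusted p = 0.202) and Ndufv3 (0.21, adjusted p = 0.297). None of these 5 passed the test, although Ndufa10 did without Cre 2 (-0.38, adjusted p = 0.0362). The complex I gene with the highest count, Ndufc2, had a mean of 4361.5 ± 247.0 in control and 3609.1 ± 637.0 with Cre (SD, n = 3, log2 fold change -0.29, adjusted p = 0.223).

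Complex II, whose 4 subunits are all nuclear and which also works in the citric acid cycle, had no call. Sdha, the flavoprotein that oxidizes succinate, had 2079.5, 1857.8 and 1987.1 normalized counts in control and 1826.9, 1837.1 and 1929.5 with Cre (log2 fold change -0.08, 95% interval -0.32 to 0.16). Sdhb, the iron-sulfur subunit, had 3557.9, 3501.9 and 3560.8 against 2707.2, 3397.1 and 3816.1 (-0.11, -0.41 to 0.19). Both catalytic subunits therefore overlapped between groups, with intervals inside ±0.5. Of the membrane anchors, Sdhd had 153, 146 and 107 normalized counts against 192, 173 and 174, without overlap (0.42, SE 0.19, limma, adjusted p = 0.183). Sdhc, the other anchor, had 859, 629 and 796 against 1663.5, 901 and 595, so that Cre 2 stood above and Cre 3 below every control library (0.35, -0.29 to 0.99).

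Complex III had no call among 8 genes. The groups did not overlap for 1 of the 8 (12.5%), where they did not for 30.3% of all genes. Uqcr11, a small accessory subunit, had 706, 609 and 659 normalized counts in control and 477, 498 and 582 with Cre, the one gene of the complex without overlap (log2 fold change -0.34, SE 0.13, limma, adjusted p = 0.127). It has 2 near-identical copies in the genome. Uqcrfs1, the Rieske iron-sulfur protein, had 965, 685 and 1021.6 against 1574.8, 955 and 656, again with Cre 2 highest and Cre 3 lowest (0.18, 95% interval -0.40 to 0.77). Uqcrc1, a core protein of the complex, had 915, 1003.5 and 979 against 820, 798 and 942 (-0.18, -0.44 to 0.08). Uqcrh, the hinge protein that contacts cytochrome c1, had the highest count of the complex, at 6370.2 ± 187.0 in control and 6422.3 ± 863.0 with Cre (SD, n = 3).

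Complex IV held 2 calls among its 16 genes (12.5%, where 9.96% of all genes were called), a count too small to set against that share. The calls went in opposite directions, and both were genes known as tissue-restricted forms. The 4 tested forms of this kind had a median of the mean counts of 44.0. The groups did not overlap for 5 of the 16 genes (31.2%, where 30.3% of all genes did not). Cox6b2 (ENSMUSG00000051811), the testis form of a subunit on the intermembrane side, had 251, 159 and 195 normalized counts in control 1, 1_1 and 2 and 79.6, 58.5 and 77.0 in Cre 2, 2_2 and 3. The highest Cre value is thus well below the lowest control value. It fell by 1.47 on the log2 scale (SE 0.22, limma, adjusted p = 0.00226), 2.77-fold, the largest decrease among the 80 genes. With 1 library left out the log2 fold change ran from -1.62 to -1.30 and the call held. Its general counterpart Cox6b1 had 4422.4, 2916.8 and 4958.5 normalized counts against 5543.8, 3694.1 and 2601.1, with full overlap (-0.09, 95% interval -0.65 to 0.47). Per kb of transcript Cox6b1 stood at a mean of 7965.9 normalized counts and Cox6b2 at 248.0.

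Cox6a2 (ENSMUSG00000030785), the heart and muscle form of a regulatory subunit, had 5.51, 32.2 and 32 normalized counts in the control libraries and 67.2, 88.7 and 76.1 in those labelled Cre. Those control values rest on 6, 22 and 24 reads, and control 1 stands below both others. It rose by 2.02 on the log2 scale (SE 0.54, limma, adjusted p = 0.0372). The call was lost without control 2 (log2 fold change 2.41, adjusted p = 0.0527), Cre 2_2 (1.91, 0.137) or Cre 3 (2.02, 0.0617). Without control 1, the library with 6 reads, the call held but the log2 fold change was 1.23 (adjusted p = 0.0425). An exon of Cox6a2 shares 66 bases with Itgad on the opposite strand, and the library kit does not mark strand, so reads there could come from either gene. The general form Cox6a1 had 2692.5, 2255.6 and 2695.3 against 2882.4, 2851.3 and 2738.9 normalized counts, which do not overlap but lie close (0.15, 95% interval -0.10 to 0.41, adjusted p = 0.455). Per kb of transcript the level of Cox6a2 was 35.3 in control and 118.0 with Cre, and that of Cox6a1 4462.0 and 4946.1.

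Cox8b, the heart and muscle form of subunit VIII, had 0.918, 7.31 and 2.67 normalized counts in control, from 1, 5 and 2 reads, and 10.4, 24.1 and 17.9 with Cre, from 15, 28 and 20 reads. Every Cre value lay above every control value (log2 fold change 2.18, SE 0.64, limma, adjusted p = 0.0534), so that it narrowly missed the threshold. It was the member nearest the minimum of 10, at a mean of 10.5, and reached it only through the Cre libraries, since the control mean was 3.63. The next member above it was Ndufs5 at 12.5, and just outside were Cox4i2, with 2 reads in Cre 2 and none elsewhere, and Cox7b2 and Cox8c, both at 0. The general form Cox8a had 2163.9, 1402.8 and 2324.5 normalized counts against 2678.1, 1657.2 and 988, with overlap. The remaining heart and muscle form, Cox7a1, had 34.9, 39.5 and 46.7 against 51.9, 20.7 and 33.1, also with overlap (-0.27, 95% interval -1.04 to 0.49), and its general form Cox7a2 had 2695.9 ± 191.0 and 2369.0 ± 143.0 (SD, n = 3).

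**Figure D3:**
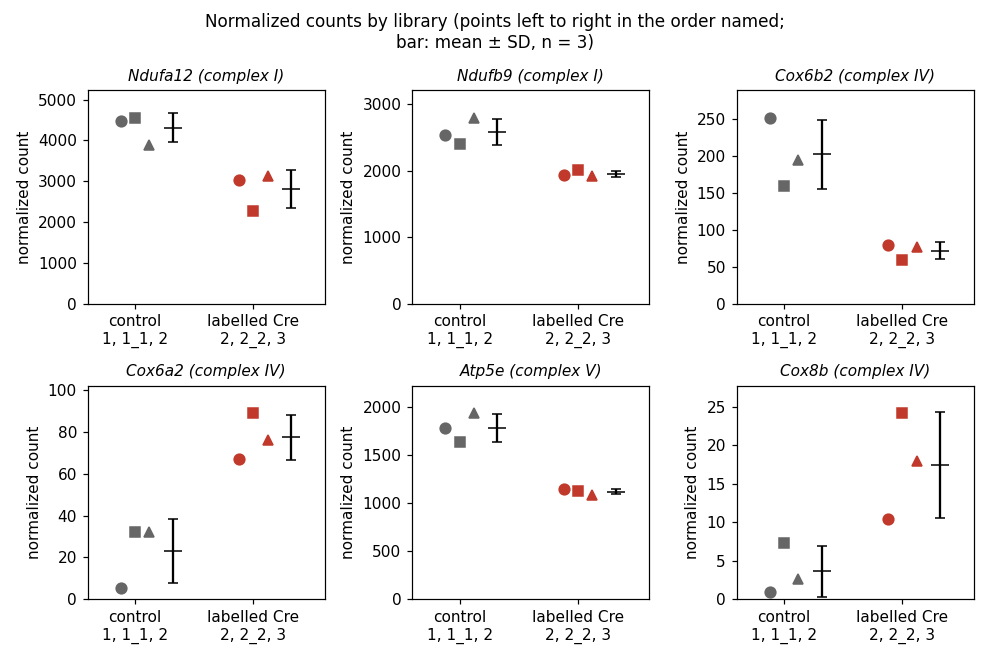
Normalized counts in each library (vertical axes start at 0) for the 5 genes with an adjusted p under 0.05 and for Cox8b, with the mean ± SD of 3 libraries beside them. In each panel the 3 control values and the 3 values of the libraries labelled Cre are separated, and Cox6a2 and Cox8b sit at far lower counts than Ndufa12, Ndufb9 and Atp5e.

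The other 12 genes of complex IV had no call, with a median of -0.07. Cox4i1, the general form of a regulatory subunit, had 1791.3, 1625.2 and 1835.1 normalized counts in control and 1594.2, 1765.7 and 1766.6 with Cre (log2 fold change -0.03, 95% interval -0.28 to 0.21). This was one of the narrowest intervals around 0 in the complex. Cox5a had 1429.8, 1173.2 and 1600.4 against 1299.2, 1116.6 and 879 (-0.36, limma, adjusted p = 0.2), and it passed only without Cre 2 (-0.49, adjusted p = 0.0438). Cox7c had all 3 Cre values (229, 204 and 175) below the control values (244, 255 and 255), at -0.31 and an adjusted p of 0.235.

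In complex V the catalytic F1 head was described apart from the rest. Atp5e (ENSMUSG00000016252), the epsilon subunit of the rotating central stalk, had 1784.0, 1636.9 and 1936.5 normalized counts in control 1, 1_1 and 2 and 1148.2, 1129.5 and 1090.6 in Cre 2, 2_2 and 3. The Cre values are nearly equal and all far below the control values. It fell by 0.67 on the log2 scale (SE 0.11, limma, adjusted p = 0.00475), 1.59-fold. With 1 library left out, the log2 fold change stayed between -0.73 and -0.61 and the adjusted p at or below 0.0359.

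The other subunits of the central stalk were lower without overlap too, but did not pass the test. In complex V 5 of the 17 genes were without overlap (29.4%, 1 above and 4 below), near the 30.3% of all genes. Atp5c1, the gamma subunit that turns inside the head, had 1839.1, 1961.6 and 1772.4 normalized counts against 1566.5, 1424.8 and 1303.7 (log2 fold change -0.38, SE 0.12, limma, adjusted p = 0.0646), and passed without Cre 2 (-0.45, 0.021). Atp5d, the delta subunit, had 1596.8, 1587.1 and 2132.5 against 1422.5, 1392.9 and 1282.2 (-0.36, SE 0.14, adjusted p = 0.123), and shares 68 exon bases with a gene on the opposite strand. The alpha and beta subunits that form the head overlapped between groups. Atp5a1 had 8323.5, 7058.0 and 7557.8 against 7773.8, 6405.0 and 6704.6 (-0.14, 95% interval -0.42 to 0.14), and Atp5b had 5737.4, 4600.5 and 5191.9 against 5289.7, 4186.5 and 4288.8 (-0.18, -0.47 to 0.12). The log2 fold changes of the 5 F1 subunits were below 0 (median -0.36), though the intervals of Atp5a1 and Atp5b include 0. Of the 5, 1 was called where 9.96% of all genes were, and 3 had an unadjusted p under 0.05 where 25.5% did, counts too small to set against these shares. The other 10 complex V subunits had a median of -0.02 with no call.

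Outside the F1 head, Atp5k, the e subunit of the membrane part, had 424, 386 and 527 normalized counts against 355, 307 and 292, without overlap (log2 fold change -0.48, SE 0.16, limma, adjusted p = 0.0783). It passed without Cre 2 (-0.56, 0.0314). It has 1 near-identical copy in the genome, and its start-site window is among those printed above. The c subunit, which forms the rotor ring, is made from 3 genes with the same mature protein. Atp5g3 had by far the most counts of the 3, with 11298.6, 7922.5 and 11810.8 in control and 14055.2, 9605.0 and 6539.8 with Cre. Atp5g1 had 151, 218 and 185 against 126, 188 and 260, and Atp5g2 27.5, 29.3 and 24.0 against 21.5, 23.2 and 34.9. All 3 overlapped between the groups, and their log2 fold changes of -0.09, 0.01 and -0.05 changed sign with the library left out. Of the names that are not structural subunits, Atp5s had 31.2, 20.5 and 25.3 against 42.2, 41.3 and 46.6, without overlap (0.75, SE 0.29, adjusted p = 0.125).

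Levels per kb of transcript spanned from 18.3 normalized counts for Ndufs5 to 14115.2 for Atp5g3 (mean of 6 libraries, longest coding transcript, so that a gene with 1 long isoform such as Atp5g1 is understated). Behind Atp5g3 came Uqcrh (11693.4), Cox6b1 (7965.9), Ndufa2 (7254.0) and Uqcr10 (6342.8). The spread between libraries does not separate Atp5g3 from Uqcrh, since Atp5g3 alone ran from 6539.8 to 14055.2 counts. A near-identical copy (at least 95% identity over at least 50% of the transcript) was present in the mm9 genome for 14 of the 80 genes, led by Atp5l with 10 and Atp5h with 4. The median of the mean counts was 272.0 for these 14 and 1249.7 for the 66 without a copy, and none of the 14 was called. Exon bases were shared with another gene by 18 genes. Of the 53 genes with neither, 4 were called, all lower, and the median log2 fold change was -0.09.

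**Figure D4:**
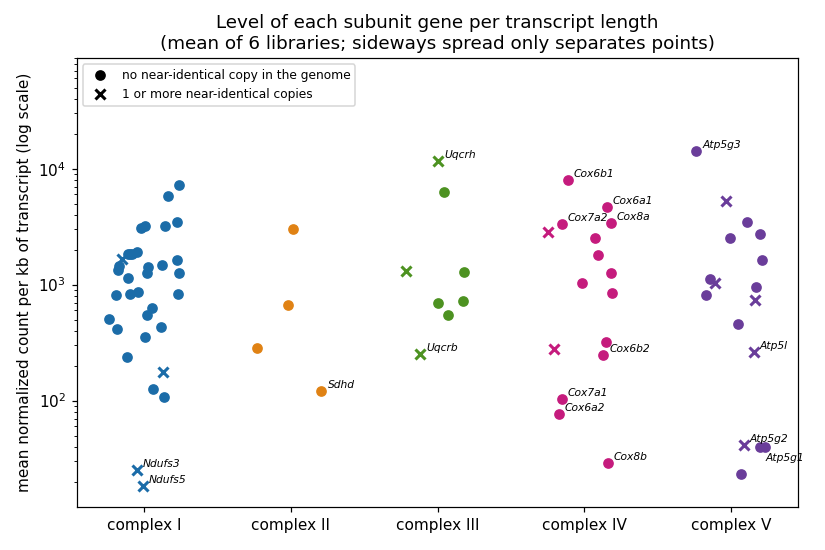
Mean normalized count per kb of transcript (log axis) of each subunit gene by complex, with crosses for the 14 genes that have a near-identical copy in the genome. Atp5g3 and Uqcrh lie highest, the tissue-restricted forms Cox6a2, Cox7a1 and Cox8b lie at the bottom of complex IV, and several crosses lie low in their complex.

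The libraries labelled Cre differed among themselves more than the groups did for most subunit genes, as for most of all tested genes. The range within the Cre group, on the log2 scale, exceeded the difference between the group means for 59 of 80 genes (73.8%), as it did for 71.6% of all genes. The range within the control group was not compared in this way. Cre 2 was more than 2-fold above Cre 3 for 11 genes, and the reverse held for 2, which makes 16.2% of the subunit genes and 10.2% of all genes. Ndufb3, a small subunit of the complex I membrane arm, had 2466.2, 1430.8 and 667 normalized counts in Cre 2, 2_2 and 3, a 3.69-fold range, and 1172.8, 642 and 1219 in the control libraries. Ndufa1, another subunit of that arm, had 708, 417 and 240 against control values of 294, 216 and 287 (log2 fold change 0.65, limma, adjusted p = 0.215), and passed without Cre 3 (1.04, 0.015). Sdhc, Cox8a, Uqcrfs1, Atp5g3 and Cox6b1 were likewise highest in Cre 2 and lowest in Cre 3 among these libraries, while Atp5l (83.8, 188 and 214) and Atp5g1 were lowest in Cre 2 and highest in Cre 3. Across the 80 genes the difference between Cre 2 and Cre 3 had a correlation of -0.25 with transcript GC content and -0.08 with log length, a description across genes that share their libraries.

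Related mitochondrial genes were described from lists of their own. The 13 subunits encoded in mitochondrial DNA include 6 listed at 0 in every library (mt-Atp6, mt-Atp8, mt-Co2, mt-Co3, mt-Nd3 and mt-Nd4l), which every cell uses, so these zeros are not levels. The other 7 had no call. Of these 7, 6 were positive and the median log2 fold change was 0.33. An unadjusted p under 0.05 (limma) was reached by 4, where 25.5% of all genes reached it, a count too small to set against that share. The 7 genes share their libraries and are not separate observations. Their sum was 109659.9 to 131904.2 normalized counts in control and 145331.6 to 171356.7 with Cre, without overlap. All genes of mitochondrial DNA, a wider set than these 7, took 9.86% to 12% of control reads and 11.3% to 12.6% with Cre. Those ranges overlap, but they do not give the share of the subunits alone. mt-Nd6, the one subunit on the light strand, had 7366.3, 6392.4 and 8171.2 against 8555.7, 13769.1 and 9165.9 (0.50, limma, adjusted p = 0.109). Without Cre 2_2, its highest library, the log2 fold change was 0.28 (adjusted p = 0.336). The library kit does not mark strand, so reads of mt-Nd6 could come from either strand. mt-Nd5 had 9846.8, 9840.2 and 9334.2 against 10987.9, 12394.2 and 12500.3 (0.30, adjusted p = 0.142).

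Nuclear subunits and partners of the complexes whose names fall outside the pattern numbered 9 tested, with no call. Not all of them are structural subunits. Cyc1, cytochrome c1 of complex III, had 1139.8, 1048.8 and 1194.9 normalized counts in control and 787, 856 and 940 with Cre (log2 fold change -0.39, limma, adjusted p = 0.065). Atpif1, the inhibitor of ATP synthase, had 4424.2, 4610.7 and 3731.5 against 3520.9, 3212.0 and 3096.2 (-0.37, adjusted p = 0.0816). Both were without overlap, below the controls. Cyct, the testis cytochrome c, was at 0 in every library.

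Of 50 assembly factors, 3 fell and none rose. Pet117, which acts in complex IV assembly, had 680, 746 and 701 normalized counts against 515, 462 and 532 (log2 fold change -0.50, limma, adjusted p = 0.0282). Sdhaf1, which helps to load iron-sulfur clusters into complex II, had 420, 363 and 376 against 270, 241 and 287 (-0.54, 0.0359). Uqcc2, a complex III factor, had 492, 452 and 499 against 295, 367 and 358 (-0.50, 0.0431). The calls of Pet117 and Sdhaf1 were lost with any control library or Cre 2_2 left out, at adjusted p from 0.0968 to 0.113 for Pet117 and from 0.0811 to 0.177 for Sdhaf1, and that of Uqcc2 on leaving out any library except Cre 3, at 0.0607 to 0.168. The share called, 3 of 50, lies near that of all genes called lower.

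Of 16 regulators of mitochondrial biogenesis, 1 fell. Ppargc1b, a coactivator of the NRF1 and ERR factors, had 106, 116 and 103 normalized counts in control and 24.2, 55.1 and 48.4 with Cre, without overlap (log2 fold change -1.41, SE 0.30, limma, adjusted p = 0.0136). This call was lost without any one of the controls, at adjusted p from 0.0592 to 0.0666 and log2 fold changes from -1.44 to -1.36. Its relative Ppargc1a had 992, 831 and 1013.6 against 1482.7, 1154.5 and 1241.9, without overlap in the other direction (0.45, SE 0.14, adjusted p = 0.0601). At an unadjusted p under 0.05 (limma), 4 of the 16 were lower and 1 was higher, where 25.5% of all genes passed. The 4 were Ppargc1b, Twnk (-0.57, adjusted p = 0.0719), Polrmt (-0.49, 0.142) and Tfam (-0.30, 0.18), of which only Ppargc1b was called. None of 18 genes of the citric acid cycle and pyruvate dehydrogenase was called. Idh2, the mitochondrial NADP-dependent isocitrate dehydrogenase, had 2954.0, 3168.4 and 3206.1 against 2438.5, 1892.2 and 2542.0 (-0.45, adjusted p = 0.054), and Dlat of pyruvate dehydrogenase had 632, 565 and 601 against 474, 452 and 438 (-0.40, adjusted p = 0.0627). None of 6 carriers and porins was called either. Vdac2 stood at -0.36 (adjusted p = 0.105) and Vdac3 at -0.15 (adjusted p = 0.512).

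**Figure D5:**
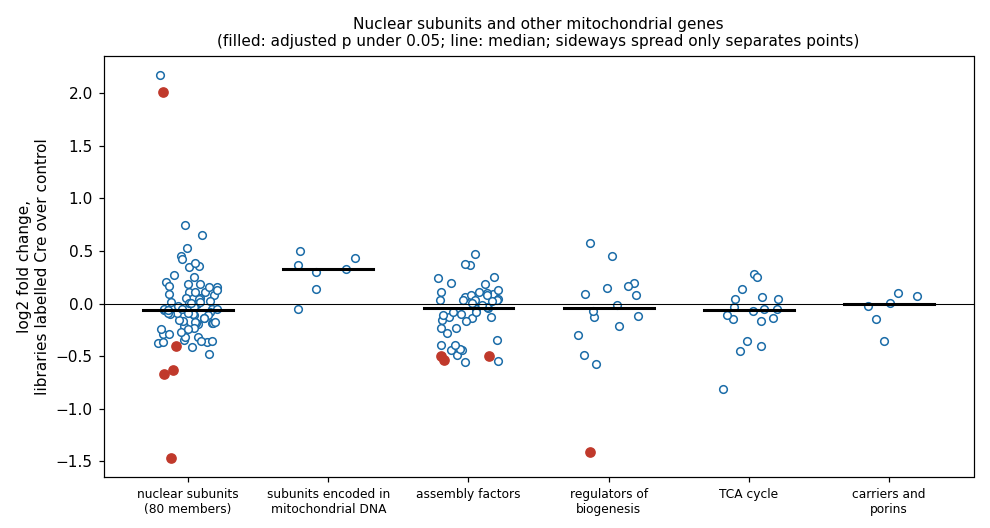
Log2 fold changes (vertical axis, libraries labelled Cre over control) of the 80 nuclear subunit genes and of the tested genes of 5 further mitochondrial lists, with a line at each median and filled points for genes with an adjusted p under 0.05. The 7 genes encoded in mitochondrial DNA have a median of 0.33, while the medians of the other lists lie between -0.06 and -0.01.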

How the data were processed

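RNA was sequenced from 3 control libraries and 3 libraries labelled Cre, prepared with the TruSeq RNA Library Prep Kit v2. The authors' methods name TopHat, mm9, mm10 and DESeq2, and the submitters' processing notes name STAR 2.7, DESeq2 and mm10. The read counter, its strand setting and the annotation are not given in the sources used here. The authors deposited 1 table of normalized counts, a signal that is each gene's read count divided by 1 size factor per library. The columns of the authors' own comparison, deposited as log2 fold changes, a test statistic (score) with its error, p-values and adjusted p-values, were not used. Dividing by the value of 1 read gave whole reads for 100.0% of values (tolerance 0.001). One gene with a missing value was left out, and 873 of 53379 genes have no name in the table.

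Genes with a mean of at least 10 normalized counts were tested (14840). The main test was limma 3.58.1 in R 4.3.3 fitted to log2(normalized count + 1) of all 6 libraries, with its trended eBayes step, with Benjamini-Hochberg adjustment over all tested genes and a threshold of 0.05. The added count of 1 draws the fold changes of low genes toward 0, while a low value in 1 library can enlarge them. Cox6a2 had group means of 23.2 and 77.3 but a fold of 4.04 on this scale, with control 1 at 5.51. DESeq2 1.42.0 and edgeR 4.0.16 (quasi-likelihood) on the recovered reads were alternatives, and called 1755 and 1483 genes where limma called 1478. An exact permutation test of 3 against 3 libraries cannot go below p = 0.1, so none was used. Other alternatives were the scaling, the pseudocount (0.5 and 5), the minimum level (none and 50), the threshold (0.1), averaging libraries 1 with 1_1 and 2 with 2_2, and leaving out each library. Lengths, exon overlap and near-identical copies (minimap2 2.31-r1302) came from the mm9 genome with GENCODE M1, and start-site windows from RefSeq (GRCm38.p6).

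The subunit genes, the other lists and the tests were chosen with earlier results of these data known. Genes named in full were those past the threshold without overlap, and in each complex the 2 with the smallest p, the largest and smallest change and the highest count. Defining subunits, isoform pairs, the genes nearest the minimum level and the 2 with the smallest p of each related list were added. Other members named, and Uqcc2, Twnk, Polrmt and Tfam, were named after their values were seen. Depth of 7510615 to 14828100 reads leaves genes with few reads, such as Cox8b and Cox6a2, with wide intervals.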

Additional observations from a re-analysis of the deposited data

How the results depend on the processing

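Cox6b2 and Atp5e passed the adjusted threshold in all 18 settings in which each was recomputed, Ndufa12 failed in 5, Ndufb9 in 11 and Cox6a2 in 4, while Cox8b passed in 6 of 17. Cox8b reached the minimum level only through the Cre libraries, so its calls are not support for a rise. The main test called 5 subunit genes, 1 higher and 4 lower. With libraries 2 and 2_2 of the Cre group averaged it was 3, with 0 higher and 3 lower, and 9.93% of all genes called. With control 1 and 1_1 averaged it was 3, with 1 higher and 2 lower (660 of all genes, 4.45%), and with both averaged it was again 3, with 1 higher and 2 lower (885, 5.96%). A threshold of 0.1 gave 9, with 2 higher and 7 lower (2380 of all genes). Cox8b made the higher count 2 with DESeq2, with edgeR, with a pseudocount of 5 and with total count scaling without mitochondrial genes. Restricting the list to genes with no copy and no shared exon, an alternative chosen after seeing the data, left 0 higher and 4 lower. Leaving out each library in turn gave 2 to 13 called subunit genes, 0 to 4 higher and 2 to 9 lower, with 558 (without control 1) to 2396 (without Cre 2) of all genes called. The median log2 fold change stayed between -0.123 and -0.028. Of 50 named genes 12 changed sign somewhere, none of them called. With averaged libraries these were Atp5g1 (-0.01, controls averaged), Atp5g2 (0.06, Cre averaged, and 0.1, both averaged) and Uqcrfs1 (-0.01, both averaged). Leaving out each library in turn gave log2 fold changes from -0.25 to 0.27 for Atp5g1, -0.25 to 0.08 for Atp5g2, -0.36 to 0.19 for Atp5g3, -0.09 to 0.01 for Cox4i1, -0.37 to 0.18 for Cox6b1, -0.59 to 0.05 for Cox7a1, -0.06 to 0.22 for Ndufv1, -0.22 to 0.02 for Sdhb, -0.04 to 0.7 for Sdhc, -0.02 to 0.31 for Uqcrb, -0.15 to 0.48 for Uqcrfs1 and -0.08 to 0.11 for Uqcrh. No paired analysis was possible because the groups share only the replicate number 2. Depth limits the genes with few reads, and 14 genes with near-identical copies have totals that depend on how shared reads were counted, which is not given in the sources used here.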
